A study of Homo sapiens with 24 samples.

Results

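The m6A peaks around the stop codon of human pluripotent stem cells and their pancreatic derivatives are described here. N6-methyladenosine (m6A) is a methyl mark on adenosines of mRNA, and m6A-seq locates it by sequencing RNA fragments pulled down with an antibody (IP) beside the fragments before the pulldown (input). A stretch with more IP than input reads is called a peak. Each deposited peak was reduced to the exons of the longest protein-coding isoform of its gene, and the peaks whose exonic midpoint lay within 200 nt of the last CDS base, the base just before the stop codon, were kept. Of 228472 peaks in 6 lists, 171944 could be placed on a coding isoform and 33421 of these lay around the stop codon.

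The study followed MEL1 cells, a human embryonic stem cell line with a GFP reporter in the insulin gene (INS GFP/W), through pancreatic differentiation. In the first batch, undifferentiated cells on CF1 feeder cells (hPSC), definitive endoderm after activin A and CHIR99021 (DE), pancreatic progenitors after KGF, retinoic acid and EGF among other factors (PP) and human islet-like organoids grown as aggregates (hILO) were profiled from mRNA with a SYSY antibody. In the second batch, wild-type progenitors (WT PP) and progenitors that lacked ALKBH5, an m6A demethylase (A5-KO PP), were profiled from total RNA with a Millipore antibody, rRNA depletion of the input and another library kit. Each of the 6 populations had 2 IP and 2 input libraries, 24 in all. All of them came from this 1 cell line, and the knockout carried indels that CRISPR-Cpf1 had produced in the first exon of ALKBH5. The label A5_KO matches the name of one of the knockout lines the study made, A5-KO. The study calls the paired libraries of a stage biological replicates, without saying in the labels whether they came from separate cultures.

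One peak list was deposited for each population, called on its 4 libraries together, and no value per library was analysed here. Every comparison below is therefore without a replicate check and without a test. Shares carry Wilson 95% intervals and log2 enrichments a counting error. Both cover counting error only, and PCR copies are not independent molecules. The 2 batches differed in RNA, antibody and kit, so batch and population cannot be told apart between them, and log2 enrichments were compared within a batch. Where marker reads or shared peaks are set side by side across batches, the difference in method comes with them. The lists were also normalized separately.

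The labels were checked on the input reads inside placed peaks, scaled to 1000000 such reads. Endoderm markers held 15080 in DE and at most 1598 elsewhere, progenitor markers 2921, 2018 and 2537 in PP, WT PP and A5-KO PP against 1200 in hILO and at most 59.2 in hPSC and DE, and endocrine markers 2798 in hILO against at most 224 elsewhere. Pluripotency markers held 4986 in hPSC and between 188 and 1238 elsewhere. Markers of other cell types were present too. Hepatocyte markers held 5949 in hILO, where 9 of the 10 genes had a placed peak, against 1080 in WT PP, 234 in A5-KO PP and at most 60.8 in the other lists. Mesenchyme markers held 4086 and 3052 in the lists of the second batch, WT PP first, against 106 to 762 in the 4 stages, and their part in the results below was not tested. A gene without a peak counts as 0 here, so the values are not expression levels. In such bulk cultures fewer cells of a type and less RNA per cell cannot be told apart.

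As background, m6A is written in the nucleus by a complex around METTL3 and METTL14, mostly at the consensus DRACH, where D stands for any base but C, R for a purine and H for any base but G, and of which GGAC is a frequent core. It is removed by ALKBH5 and FTO and read by YTH-domain proteins that act on splicing, translation and decay. In mammalian mRNA the mark is dense in long exons and around the stop codon, which in most genes sits in the last exon. Proteins left at exon junctions after splicing mark the ends of internal exons, and a junction far behind a stop codon sends an mRNA to nonsense-mediated decay.

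The peaks themselves are shown first at 7 genes that had a peak in all 4 stages of the first batch, each with at least 50 input reads. OGFRL1, ACVR2A, SYNCRIP, MTERF4, NCK1 and SRSF11 had the highest median log2 enrichment among 1062 such peaks around the stop codon, and FOXO3 was among the highest of the 15 whose stop codon lay before the last exon. For each gene the 30 nt around the stop codon are printed with the stop codon in capitals. A second stretch of 30 nt shows a GGAC site that all 4 peaks covered, with GGAC in capitals. Where several sites qualified, the site closest to the median midpoint of the 4 peaks is shown. NCK1 had no GGAC in its peak, and a DRACH site chosen in the same way is shown instead. The sequences are the sense strand of GRCh38 with T for U, cut at GENCODE 44 isoforms, and positions count from the last CDS base.
OGFRL1 stop codon, chr6:71302034-71302063 on the plus strand: tgtactagtacagTGAattatcagaaaacc
OGFRL1 GGAC at -165, chr6:71301868-71301897 on the plus strand: gaaatacagagaaGGACagtaatgctgaga
ACVR2A stop codon, chr2:147927259-147927288 on the plus strand: agaatctagtctaTGAtggttgcgccatct
ACVR2A GGAC at 194, chr2:147927452-147927481 on the plus strand: gcacagatgtgaaGGACatgagactaagag
SYNCRIP stop codon, chr6:85612868-85612897 on the minus strand: tgacctgttacaaTGAagactgacttgcta
SYNCRIP GGAC at 147, chr6:85612722-85612751 on the minus strand: ggaatcaaatacgGGACattgaactaatac
MTERF4 stop codon, chr2:241095984-241096013 on the minus strand: cgacgaggaggaaTAGctgtgatggaagga
MTERF4 GGAC at 15, chr2:241095970-241095999 on the minus strand: agctgtgatggaaGGACtagagcgaaaggg
NCK1 stop codon, chr3:136948438-136948467 on the plus strand: caagcatttatcaTGAtactgctgaccaga
NCK1 DRACH at -38, chr3:136948400-136948429 on the plus strand: atttttacaagtGAACAaggagaaaaatta
SRSF11 stop codon, chr1:70250790-70250819 on the plus strand: ggatatgagtgacTGAatattgcctctgag
SRSF11 GGAC at -234, chr1:70250451-70250480 on the plus strand: aagataaggaaaaGGACcgggaaagaaaat
FOXO3 stop codon, chr6:108664840-108664869 on the plus strand: ctgggtgccaggcTGAaggatcactgagga
FOXO3 GGAC at 99, chr6:108679875-108679904 on the plus strand: gctctcagcaagtGGACagtgataccgttt
In OGFRL1, ACVR2A, SYNCRIP and NCK1 both stretches lay in the last exon. In SRSF11 the printed GGAC lay in an earlier exon and was the only one that the peaks of all 4 stages covered. In MTERF4 both stretches lay before the last exon, and in FOXO3 the stop codon lay before it and the GGAC site within it. Peaks that hold several sites do not show which adenosine was methylated.

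The genes were chosen for a high median over the 4 stages, so that their values are a description. OGFRL1, a relative of the opioid growth factor receptor, had log2 enrichments (± counting error) of 2.93 ± 0.14, 2.96 ± 0.11, 3.05 ± 0.07 and 2.82 ± 0.07 in the order hPSC, DE, PP, hILO. ACVR2A, a type II activin receptor and thus part of the pathway that the endoderm medium acts on, had 2.96 ± 0.17, 3.29 ± 0.13, 2.83 ± 0.11 and 2.76 ± 0.08 in the same order. In both genes the 4 stages lay close together, and the DE value of ACVR2A was the highest. SYNCRIP, an hnRNP that binds RNA, had 2.40 ± 0.06, 2.79 ± 0.06, 3.57 ± 0.06 and 2.95 ± 0.08. MTERF4, a mitochondrial protein of ribosome assembly, had 2.97 ± 0.07, 2.51 ± 0.07, 2.85 ± 0.07 and 2.77 ± 0.05. SYNCRIP was thus highest in PP, by more than the counting error, while MTERF4 was lowest in DE. NCK1, an adaptor of receptor signalling, had 2.79 ± 0.14, 2.81 ± 0.11, 2.77 ± 0.12 and 2.55 ± 0.20. SRSF11, a serine/arginine-rich splicing factor, had 2.85 ± 0.04, 2.71 ± 0.03, 2.89 ± 0.03 and 1.30 ± 0.09. NCK1 stayed level within its error in all 4 stages, whereas SRSF11 was lower in hILO than in each earlier stage, with 438 input reads there. The peak ends moved to different degrees between stages. The SRSF11 peak started at the same base in all 4 lists and was 461, 486, 436 and 461 nt long, whereas the NCK1 peak was 288, 400, 338 and 325 nt long and began in the upstream exon in hPSC and PP only. ACVR2A was also listed in the second batch, but its WT PP peak had no input reads.

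**Figure D1:**
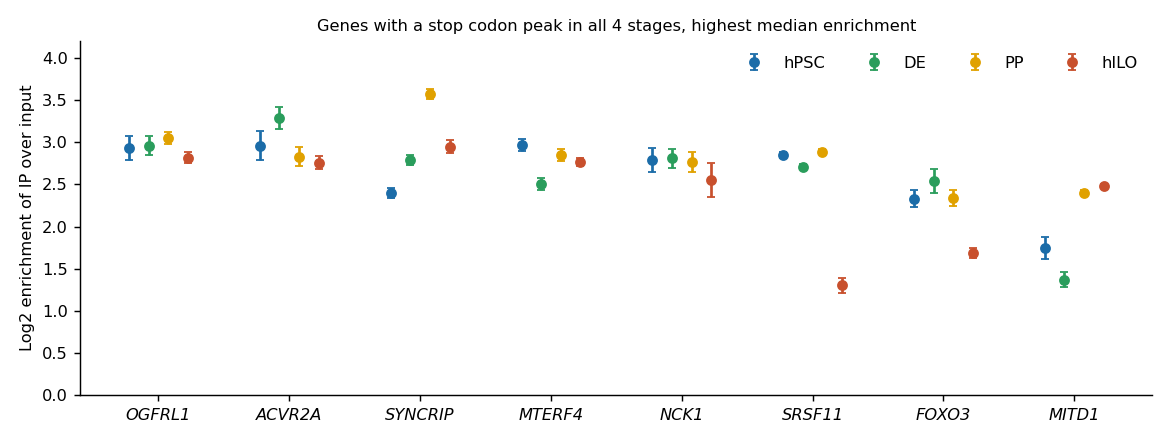
Log2 enrichment of IP over input (y axis) of the stop codon peaks of 8 genes (x axis) in hPSC, DE, PP and hILO; points are the deposited values of the pooled libraries and bars the counting error. All points lie between 2.33 and 3.57 except SRSF11 and FOXO3 in hILO and MITD1 in hPSC and DE.

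Peaks around the stop codon made up a similar share of the placed peaks in every list. The first batch had 5689 (hPSC), 5390 (DE), 4510 (PP) and 5274 (hILO), and the second 6090 (WT PP) and 6468 (A5-KO PP). Their share of the placed peaks was 20.1% in hPSC (95% interval 19.6% to 20.6%) and 21.4% in DE (20.9% to 21.9%). PP had 19.5% (19.0% to 20.1%) and hILO 21.1% (20.6% to 21.7%). In the second batch it was 18.4% in WT PP (18.0% to 18.8%) and 17.3% in A5-KO PP (16.9% to 17.7%). DE and hILO thus had a larger share than PP, and WT PP a larger share than A5-KO PP, by more than the counting error. These peaks lay on 5360, 5069, 4186, 5007, 5658 and 5937 genes in the order hPSC, DE, PP, hILO, WT PP and A5-KO PP. This was 49.6%, 49.8%, 45.5%, 48.6%, 49.6% and 46.9% of the genes with a placed peak. Most of the genes had 1 such peak (5048 in hPSC), and few had 3 or more (16 in hPSC). For 27.2% of the genes in hPSC and between 23.5% and 31.1% in the other lists, the placed peaks were all around the stop codon.

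Peaks around the stop codon were longer than the other placed peaks, and in all lists but WT PP their median input was higher. Their median exonic length was 200 nt in hPSC, DE, PP and A5-KO PP and 225 nt in hILO and WT PP, against 150 to 175 nt for the others. Their median input was 85, 147, 99 and 319 reads along the 4 stages, 95 reads for WT PP and 54 reads for A5-KO PP, against 71, 106, 92, 309, 95 and 48 reads for the other placed peaks. In WT PP 552 of them and in A5-KO PP 1210 (18.7%) had no input reads, against at most 12 in a list of the first batch. The median log2 enrichment was 1.77, 1.76, 1.68 and 1.54 along the 4 stages, with a median counting error between 0.0958 and 0.165. WT PP had 3.72 and A5-KO PP 4.19. Among peaks of 50 or more input reads the medians were 1.72, 1.70, 1.59, 1.49, 3.62 and 3.78, against 1.65, 1.63, 1.54, 1.47, 3.48 and 3.70 for the other placed peaks. The GC content was lower than in the other placed peaks in each list, with a median of 48.3% against 50.8% in hPSC and 44.4% against 48.0% in PP.

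Within a gene, the median difference between the peak at the stop codon and other CDS peaks was above 0 in each list, and that to other 3UTR peaks below 0. For genes with both kinds of peak and at least 50 input reads, the log2 enrichment at the stop codon minus that of the other CDS peaks had a median of 0.12 in hPSC (1475 genes) and 0.14, 0.079, 0.029, 0.22 and 0.31 in the 5 other lists, in the order given above. Against other 3UTR peaks the median was -0.019, -0.040, -0.17, -0.053, -0.22 and -0.25. The spread between genes was much larger than these medians. In hPSC the quartiles of the CDS difference were -0.25 and 0.52, and the peak at the stop codon was the higher one in 59.6% of genes.

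The window of 200 nt sits on a gradient and not on a step. In hPSC, 606 peaks had their midpoint in the last 25 nt inside the window and 541 in the first 25 nt outside it, with a median log2 enrichment of 1.71 and 1.75. In hILO the numbers were 555 and 549, with 1.49 and 1.52. Midpoints lay before the last CDS base in 37.0% (DE) to 41.8% (A5-KO PP) of the peaks, with 39.1% in hPSC. The peak covered the stop codon in 56.5% (PP) to 62.8% (WT PP) of cases. The median midpoint was 31 to 45 nt behind the last CDS base.

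Along the transcript, the density of midpoints climbed from the last coding exons into the start of the 3UTR and then dropped. In hPSC it was 0.799 per kb of isoform at 300 to 250 nt before the last CDS base, 1.79 per kb at 50 to 100 nt behind it, and 0.330 per kb near 1000 nt. DE, PP, hILO and A5-KO PP had their highest 50 nt bin at the same place, with 1.89, 1.72, 1.68 and 1.62 per kb, and WT PP at 100 to 150 nt with 1.86 per kb. Counted from the start of the last exon, hPSC had 0.503 per kb in the 50 nt before it and 0.501 per kb in the 50 nt behind it, and 1.99 per kb at 250 to 300 nt. The density of midpoints thus stayed low on both sides of the last junction and was highest well inside the last exon. The longer a peak that stays within 1 exon, the farther its midpoint must lie from a junction. In hPSC 55.4% of the 267 placed peaks with a midpoint in the first 50 nt of the last exon touched several exons. The part of peak width in the low density at the junction was not tested.

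**Figure D2:**
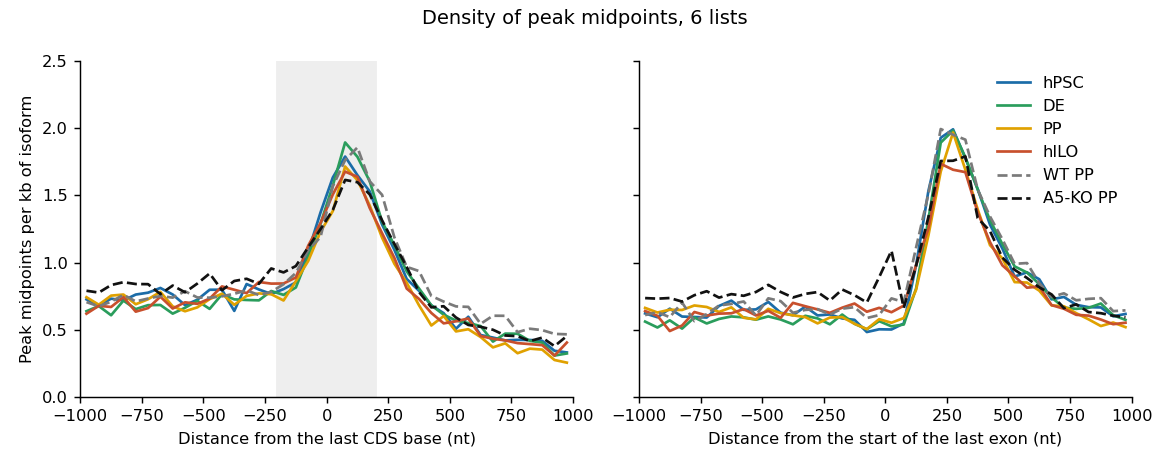
Peak midpoints per kb of isoform (y axis) in bins of 50 nt, by distance in nt from the last CDS base (left, window of 200 nt shaded) and from the start of the last exon (right), 1 line for each of the 6 lists (second batch dashed). Every list is highest between 50 and 150 nt behind the last CDS base and between 200 and 350 nt inside the last exon, where hPSC reaches 1.99 per kb.

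Nearly all peaks around the stop codon lay in the last exon. The midpoint was in the last exon for 93.2% in hPSC (95% interval 92.5% to 93.8%), and for 92.6% in DE and 92.3% in PP (91.5% to 93.1%). For hILO it was 89.9% (89.1% to 90.7%), for WT PP 92.9% and for A5-KO PP 90.5% (89.8% to 91.2%). Of the other placed peaks, 41.4% (A5-KO PP) to 50.9% (DE) lay there. The rule itself favours the last exon, since 94.6% of coding isoforms have their stop codon in it. Peaks over several exons made up 16.0% in hILO, 14.7% in A5-KO PP and 13.3% in WT PP, and between 8.77% and 9.48% in the other lists. Among peaks that touched 1 exon only, the share in the last exon was 96.3% in hPSC and 95.1% in hILO, and between 95.03% and 96.11% in the other lists. The median midpoint lay 274 nt behind the last junction in hPSC and 259 to 284 nt behind it in the other lists. Peaks that crossed the last junction numbered 434 in hPSC, 726 in hILO and 825 in A5-KO PP.

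The share of genes with a peak at the stop codon depended on how much coding sequence the last exon held. In hPSC, 32.4% of genes with up to 50 coding nt in the last exon and any placed peak had one, 36.6% with 51 to 100 nt, 48.8% with more than that and up to 200 nt, and 64.6% with over 200 and up to 400 nt (95% interval 62.4% to 66.7%). With over 400 nt it was 59.1%, and for genes without introns 58.1%. In hILO the same classes gave 39.9%, 40.7%, 48.0%, 60.1%, 54.6% and 49.3%, and in A5-KO PP 34.6%, 40.5%, 48.0%, 57.2%, 49.4% and 49.7%. The class of over 200 and up to 400 nt had the highest share in each of the 6 lists.

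The position of the highest density moved with the last exon. In hPSC, isoforms with up to 50 coding nt in the last exon had it at 150 to 200 nt behind the last CDS base (1.60 per kb), those with over 100 and up to 200 nt at 50 to 100 nt (2.39 per kb) and those with over 200 and up to 400 nt in the last 50 nt before the stop codon (2.49 per kb). Counted from the start of the last exon, the 4 classes up to 400 nt had their highest bin at 200 to 250 nt or 250 to 300 nt, with 1.64, 1.84, 2.43 and 2.68 per kb. Isoforms with over 400 coding nt had it at 400 to 450 nt (2.02 per kb). In the other 5 lists the 4 classes up to 400 nt also had their highest bin between 200 and 350 nt inside the last exon. In hPSC the maximum of these classes was thus within 100 nt of the same place when counted from the start of the last exon, while counted from the stop codon it moved from the 3UTR into the coding sequence. In the other lists the class of over 200 and up to 400 nt kept its maximum behind the last CDS base, at 0 to 50 nt in hILO and WT PP and at 50 to 100 nt in DE, PP and A5-KO PP.

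**Figure D3:**
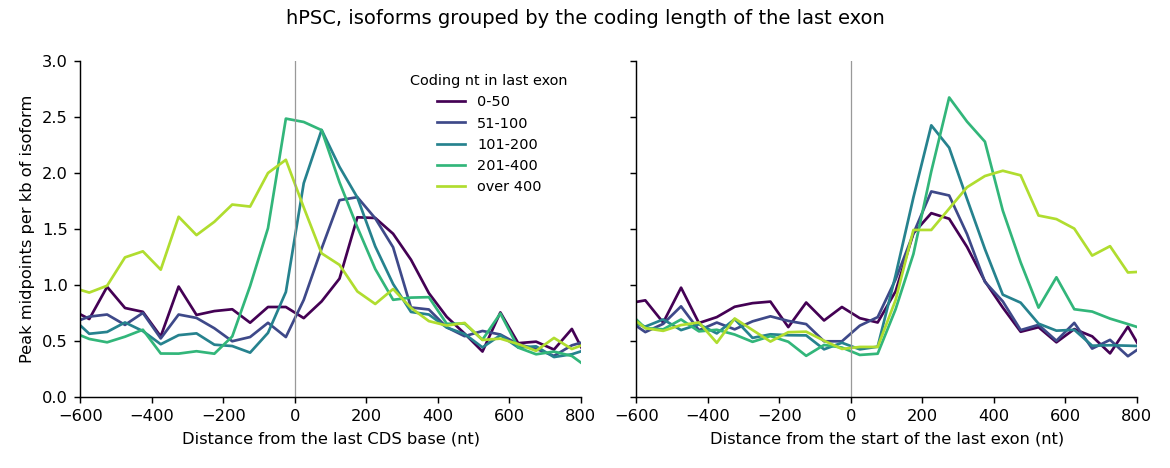
Peak midpoints per kb of isoform (y axis) in hPSC, by distance in nt from the last CDS base (left) and from the start of the last exon (right), 1 line for each class of coding nt in the last exon. The maxima spread from 200 nt behind to 50 nt before the last CDS base on the left and, for the classes up to 400 nt, gather between 200 and 300 nt on the right.

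Coding sequence shortly before the stop codon also held more midpoints where it belonged to the last exon. In the 200 nt up to the last CDS base, hPSC had 1.20 midpoints per kb where the sequence belonged to the last exon and 0.577 per kb where it belonged to earlier exons, a ratio of 2.08 (95% interval 1.86 to 2.33) from 1743 and 370 midpoints. DE had a ratio of 1.69 (1.52 to 1.89), PP of 1.78 (1.58 to 2.01) and hILO of 1.42 (1.29 to 1.57). In the second batch it was 1.90 for WT PP (1.70 to 2.11) and 1.54 for A5-KO PP (1.40 to 1.69). Last-exon sequence lies on average nearer to the stop codon, so the ratio was also matched in 4 bins of 50 nt from the last CDS base, a choice made after seeing the data. It was then 1.89 in hPSC (1.68 to 2.13), 1.501 for DE (1.33 to 1.69), 1.59 for PP (1.40 to 1.81) and 1.27 for hILO (1.14 to 1.42), and in the second batch 1.80 (1.61 to 2.01) and 1.47 (1.33 to 1.62). In hPSC the 4 bins, from the farthest to the nearest, had 1.08, 0.989, 1.17 and 1.43 midpoints per kb in the last exon and 0.533, 0.595, 0.654 and 0.596 per kb in earlier exons. The last exon was higher in each bin of each list, though in hILO the intervals of the ratio included 1 in 2 of the 4 bins. GGAC sites were also denser in the last exon, with 5.41 per kb against 4.95 per kb in earlier exons in hPSC. Their part in the ratio and that of peak width were not tested.

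Few of the peaks sat at a stop codon outside the last exon. There were 155 in hPSC, 125 to 177 in the later stages, and the second batch had 180 (WT PP) and 239 (A5-KO PP). Their genes were 2.65% of the genes with a peak at the stop codon in hPSC, against 4.42% of all genes with a placed peak, and 3.54% against 4.74% in A5-KO PP. The stop codon was mostly close to the last junction. The median gap was 16 nt in hPSC and 16 to 18 nt in the other lists, and the gap was at most 55 nt, the range usually given as safe from nonsense-mediated decay, for 142 of the 155 peaks in hPSC. In hPSC 54.8% of these peaks had their midpoint beyond the junction, in the last exon. Where the gap exceeded 55 nt, 2 of 13 did. For 33 of the 155 the canonical isoform of GENCODE placed the stop codon in the last exon, so the count depends on the isoform.

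Among the 15 such peaks that were present in all 4 stages with at least 50 input reads, FOXO3, MTERF4 and MITD1 had the highest median enrichment over the stages. On a scale that starts with the last exon, the last CDS base of MTERF4 lay at -1092 nt, and the peak was on the stop codon itself, with midpoints 5.0 to 42.5 nt behind it and 7 to 9 GGAC sites. FOXO3, a forkhead transcription factor of the insulin pathway, had its last CDS base at -37 nt, and its peak ran over the junction, with 2.33 ± 0.10, 2.54 ± 0.14, 2.34 ± 0.09 and 1.69 ± 0.06 along the 4 stages. In hILO the peak covered only the last exon, and its midpoint at 228 nt was outside the window. MITD1, a protein of the last step of cell division, had it at -6 nt and no GGAC site, with 1.75 ± 0.13, 1.37 ± 0.09, 2.40 ± 0.03 and 2.48 ± 0.02. Its input counts differed widely, from 132 in hPSC to 4283 in hILO. No sequence is printed for it.

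The consensus sites were somewhat more frequent in peaks around the stop codon than in other peaks. A DRACH site was present in 92.2% (PP) to 94.8% (hILO) of them, in 93.5% in hPSC, and in 89.4% of all placed peaks in hPSC. GGAC, searched on the transcript strand only, was present in 63.5%, 61.3%, 58.6%, 62.6%, 62.1% and 60.3%, against 56.5% of the other CDS peaks and 59.3% of the other 3UTR peaks in hPSC. Peaks around the stop codon were also longer, so that more sites fit in. Per kb the GGAC density was 5.82 in hPSC, against 5.47 and 5.38 in the other CDS and 3UTR peaks. The GGAC site nearest to the midpoint was a median of 58 nt away in hPSC and 62 to 67 nt in the other lists. Such peaks are thus wider than the sites they may mark.

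Genes with a peak at the stop codon had more GGAC in the 200 nt on each side of it than genes whose peaks lay elsewhere. At least 1 site was there in 82.9% (95% interval 81.9% to 83.9%) against 75.9% (74.7% to 77.0%) in hPSC, and in 80.7% to 82.0% against 75.3% to 76.3% in the other lists. The largest gap was just behind the stop codon, where hPSC had 6.08 per kb against 4.00 per kb in the first 50 nt, while at 151 to 200 nt the values were 3.61 and 3.75 per kb. The stop codon was TGA in 51.5% and 48.4% of these genes in hPSC, and part of a DRACH site in 9.79% (9.02% to 10.6%) and 8.93% (8.20% to 9.72%), which overlapped within counting error. Genes with a peak at the stop codon had a median 3UTR of 1688 nt, against 1492 nt.

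Peaks around the stop codon were more often found in a neighbouring stage than other peaks. A peak counted as shared when over 50% of its exonic length was covered by peaks of the other list. Of the DE peaks, 74.9% (95% interval 73.7% to 76.1%) were found in hPSC, against 66.6% of the other placed peaks and 68.4% of all placed peaks. Of the PP peaks, 75.03% (73.8% to 76.3%) were found in DE, against 55.8% of the others and 59.5% of all. Of the hILO peaks, 53.7% (52.4% to 55.1%) were found in PP, against 45.2% of the others and 47.0% of all. Looking back, the step into hILO thus shared the fewest. Looking forward, it shared the most, since 68.8% of the hPSC peaks were found in DE, 56.1% of the DE peaks in PP and 76.4% of the PP peaks in hILO, against 51.7%, 48.3% and 59.96% of the others. Over all placed peaks these shares were 55.1%, 49.9% and 63.2%. Other 3UTR peaks were shared in 64.2%, 65.96% and 43.49% looking back and in 59.02%, 43.75% and 69.23% looking forward. For other CDS peaks these shares were 69.17%, 53.78% and 46.56%, and 51.02%, 52.3% and 58.98%. Of the unshared peaks around the stop codon of DE, PP and hILO, 30.8%, 35.2% and 37.1% were on genes without any placed peak in the list before.

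In most pairs of lists, sharing was higher among peaks with more input reads. Among DE peaks around the stop codon, 65.8% of those with up to 9 input reads and 80.1% of those with at least 200 were found in hPSC. Among hILO peaks the share found in PP was 72.7% with up to 9 input reads (11 peaks only), 48.8% with 10 to 49 and 54.4% with at least 200, so at high input too it was lower than at the other steps. WT PP peaks found in A5-KO PP varied little with input, from 57.8% to 62.9%. The part of depth in the differences between steps was not tested.

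Over the 4 stages of the first batch, a core of peaks was found throughout. Of the peaks around the stop codon, 40.4% of those in hPSC (2299) and 44.3%, 57.8% and 41.3% of those in DE, PP and hILO were covered in all 3 other stages, against 26.6%, 33.4%, 38.8% and 30.4% of the other placed peaks. Those that overlapped no peak of another stage were 13.2% (751), 8.78% (473), 6.52% (294) and 14.8% (779), against 23.1%, 13.9%, 17.6% and 22.9%. In hPSC the peaks found in all stages were longer than those found alone (median 275 against 95 nt), had more input reads (125 against 43) and more often a GGAC site (70.8% against 40.9%). In hILO the median input was 341 and 339 reads, the length 300 and 100 nt and the GGAC share 74.3% and 34.3%. The part of length in these GGAC shares was not tested. Of 7820 genes with such a peak in any stage, 2403 (30.7%) had it in all 4 and 2331 in 1 only, of which hPSC held 745, DE 488, PP 359 and hILO 739. Expression was not used here. Of the 4933 that had a placed peak in all 4 stages, 48.7% had one at the stop codon in each.

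Peaks found alone in a stage included genes of varied function. Among 347 such hPSC peaks with at least 50 input reads, SLC16A5, a monocarboxylate transporter, had the highest log2 enrichment with 3.03 ± 0.17, followed by MAGEL2, an imprinted gene without introns, with 2.92 ± 0.19 and ATP10A, a phospholipid flippase, with 2.75 ± 0.08. The SLC16A5 peak kept only 20 nt on the isoform used, so its placement is uncertain. Of 280 in DE the highest were ITGA4, the integrin alpha 4 chain, with 3.75 ± 0.18, REEP3, which shapes the endoplasmic reticulum, with 3.42 ± 0.13 and THAP9, a transposase relative, with 3.39 ± 0.16. Of 174 in PP they were GLRB, the beta chain of the glycine receptor, with 3.89 ± 0.18, BAZ1A, a chromatin remodelling subunit, with 3.27 ± 0.11 and ETAA1, an activator of the ATR kinase, with 3.12 ± 0.13. Of 711 in hILO they were RC3H1, an RNA-binding regulator of decay, with 2.83 ± 0.16, SYCP3, known from meiotic chromosomes, with 2.82 ± 0.10 and CD200, a surface glycoprotein, with 2.82 ± 0.06. Most of these peaks were short, 50 to 200 nt apart from the 20 nt of SLC16A5.

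Where a peak was present in all 4 stages with at least 50 input reads, its enrichment mostly varied by less than 1 along the series. Over these 1062 peaks the median log2 enrichment was 1.92, 1.86, 1.66 and 1.53 from hPSC through hILO. The range between the highest and the lowest stage of a peak had a median of 0.81, with quartiles of 0.52 and 1.18, and 687 peaks (64.7%) varied by less than 1. The highest value was in hPSC for 473 peaks, in DE for 258, in PP for 207 and in hILO for 124. Because each list was scaled on its own, a shift of a whole list cannot be told apart from a change of methylation.

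Between neighbouring stages, few shared peaks differed by 1 or more in log2 enrichment. From hPSC to DE, 154 of 4038 (3.81%) were higher by at least 1 and 237 (5.87%) lower, against 4.01% and 6.1% of all shared placed peaks. From DE to PP, 256 of 3384 (7.56%) were higher and 297 (8.78%) lower, against 6.99% and 8.0%. From PP to hILO, 114 of 2834 (4.02%) were higher and 383 (13.5%) lower, against 4.0% and 12.6%. These shares were near those of all peaks at each step. The splits depended on the scale. With log2 ratios of the deposited counts, each list centred on its median, 254 were higher and 242 lower from DE to PP, so that the direction turned. From PP to hILO 201 were higher and 234 lower, and from hPSC to DE 181 and 221. Among peaks that had 50 or more input reads on both sides, 41 and 85 of 2388 differed from hPSC to DE, 86 and 148 of 1953 from DE to PP, and 54 and 173 of 1857 from PP to hILO.

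The median difference of these well-covered peaks was -0.096 from hPSC to DE, -0.18 from DE to PP and -0.093 from PP to hILO. On the deposited scale it moved with GC content. From DE to PP it was -0.0021 for peaks under 40% GC and -0.45 for peaks of at least 60% GC, and from PP to hILO it was -0.21 and 0.055. With centred count ratios the direction turned, with -0.11 and -0.012 from DE to PP and 0.32 and -0.14 from PP to hILO. The GC trend thus depended on the scale. Within genes that had both kinds of peak, the difference at the stop codon minus that at the other peaks had a median of 0.016 from hPSC to DE (1118 genes), -0.079 from DE to PP (830 genes) and 0.014 from PP to hILO (776 genes), with quartiles at least 0.27 on either side of 0. The median difference at the stop codon was thus close to that of the other peaks of the same transcripts.

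The largest differences among well-covered peaks fell on genes of unlike function. From hPSC to DE, KCNG1, a modifier subunit of potassium channels, went from 2.74 to 0.79, a difference of -1.95 ± 0.20. FAM53B, known to act on beta-catenin, went from 2.55 to 0.63 (-1.93 ± 0.09), and CPZ, a carboxypeptidase with a Frizzled-like domain, from 2.92 to 1.03 (-1.89 ± 0.25). PHC3, a Polycomb subunit, went from 1.54 to 3.57 (2.03 ± 0.10), GNPNAT1, an enzyme of the hexosamine pathway, from 1.38 to 3.34 (1.96 ± 0.26), and SEMA3A, a secreted guidance cue, from 1.52 to 3.39 (1.87 ± 0.16). The 3 peaks that were lower had 57.3% to 67.6% GC, and the 3 that were higher had 30.9% to 38.7%. The SEMA3A peak was 675 nt long in hPSC and 1150 nt in DE, and the FAM53B peak 625 and 250 nt, so the values do not cover the same bases. The other 4 peaks were 200 to 425 nt long in hPSC and 175 to 475 nt in DE.

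From DE to PP, AP2B1, a subunit of the clathrin adaptor AP-2, went from 3.44 to 1.45 (-1.99 ± 0.26). SEMA3D, another guidance cue, went from 3.12 to 1.22 (-1.90 ± 0.20), and RNF14, a ubiquitin ligase, from 3.04 to 1.23 (-1.81 ± 0.20). DUSP14, a phosphatase, went from 1.18 to 3.37 (2.19 ± 0.19), KIF5C, a kinesin motor, from 0.76 to 2.87 (2.11 ± 0.21), and ANAPC16, a subunit of the anaphase-promoting complex, from 0.83 to 2.90 (2.07 ± 0.18). The PP peaks of these last 3 genes were each 75 nt long. In KIF5C the stop codon lay before the last exon.

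From PP to hILO, FUNDC1, a receptor of mitophagy, went from 3.33 to 1.00 (-2.33 ± 0.15). TRAIP, a ubiquitin ligase of the replisome, went from 2.92 to 0.68 (-2.25 ± 0.13), and IPP, a kelch protein, from 3.18 to 0.97 (-2.20 ± 0.12). N4BP1, an RNase-like protein, went from 0.87 to 2.66 (1.79 ± 0.11), RER1, which returns proteins to the endoplasmic reticulum, from 0.67 to 2.35 (1.68 ± 0.26), and COLGALT2, which glycosylates collagen, from 0.78 to 2.43 (1.64 ± 0.11). These genes were taken from the ends of the distribution and carry no replicate check.

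In the knockout comparison the ALKBH5 transcript itself was examined first. A peak at its stop codon was listed in all 6 populations, with 1.26 ± 0.13, 1.71 ± 0.04, 2.01 ± 0.21 and 2.65 ± 0.17 along the 4 stages. In WT PP it had 42 IP and no input reads, and in A5-KO PP 87 IP and no input reads, so that neither enrichment can be read. The indels lie in the first exon, and a peak at the stop codon does not check the knockout. On the scale used above, hepatocyte markers held 1080 input reads in WT PP against 234 in the knockout, and their part in the comparison was not tested.

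WT PP and A5-KO PP shared 68.1% of the A5-KO PP peaks around the stop codon (95% interval 66.9% to 69.2%), against 52.5% of the other placed peaks there and 55.2% of all. Of the WT PP peaks, 60.9% (59.6% to 62.1%) were found in A5-KO PP, against 48.98% of the others and 51.2% of all. Other 3UTR peaks of A5-KO PP were found in WT PP nearly as often, in 65.8%, and other CDS peaks in 47.8%. Of the peaks around the stop codon, 63.1% of those with up to 9 input reads and 74.5% of those with at least 200 were shared. The shared peaks differed widely in enrichment. Of 4404, 1638 (37.2%) were higher by at least 1 in A5-KO PP and 1228 (27.9%) lower, against 36.7% and 28.3% of all shared placed peaks. With count ratios centred on the median of each list, 1320 were higher and 1378 lower, so the direction of the split depended on the scale. Of the 1716 with 50 or more input reads on both sides, 386 were higher and 358 lower, with a median difference of -0.0048. Of those with under 10 input reads in one list, 53.7% were higher and 33.3% lower.

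The largest differences between WT PP and A5-KO PP spanned several log2 units, on the wide scale of the second batch. ZNF326, a zinc finger protein that links transcription and splicing, went from 2.53 in WT PP to 12.29 in A5-KO PP, a difference of 9.77 ± 0.22, with 39580 IP and 66 input reads in a peak of 75 nt. PUS1, a pseudouridine synthase, went from 0.99 to 6.59 (5.60 ± 0.20), and RYK, a Wnt receptor, from 1.08 to 6.26 (5.18 ± 0.23). ERC1, a scaffold of secretion sites, went from 7.40 to 1.53 (-5.88 ± 0.28), EXO5, a DNA exonuclease, from 6.87 to 1.57 (-5.30 ± 0.30), and CDC42BPB, a kinase downstream of CDC42, from 6.12 to 1.08 (-5.04 ± 0.07). Input counts moved too. In CDC42BPB they rose from 452 to 29537. The PUS1 peak shortened from 718 to 325 nt, and EXO5 from 1275 to 275 nt. Their part in the differences was not tested.

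The PP and WT PP lists of the 2 batches overlapped in one direction more than in the other. Of the PP peaks around the stop codon 74.9% were found in WT PP (59.4% of the others), while 33.3% of the WT PP peaks were found in PP (22.7% of the others). Genes with such a peak in both numbered 2748, 65.7% of those in PP and 48.6% of those in WT PP.

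Most genes of the m6A machinery with a placed peak had one at their own stop codon. Of those with any placed peak, 13 of 18 had one in hPSC, PP, hILO and WT PP, 14 of 18 in DE and 13 of 19 in A5-KO PP, against 49.6%, 45.5%, 48.6%, 49.6%, 49.8% and 46.9% of all genes with a placed peak in these lists. The intervals of hPSC and WT PP, both 49.1% to 87.5%, and of A5-KO PP, 46.0% to 84.6%, included the share of all genes. Those of DE, PP and hILO lay above it. ZC3H13, a scaffold of the writer complex, had 2.08 ± 0.14, 2.18 ± 0.09, 2.09 ± 0.11 and 1.82 ± 0.08 along the 4 stages. METTL14, the partner of the methyltransferase, had 2.48 ± 0.11, 2.17 ± 0.09, 1.17 ± 0.27 and 1.63 ± 0.11, with 39 input reads in PP. WTAP, another subunit, had 2.43 ± 0.06, 2.06 ± 0.05, 0.85 ± 0.04 and 1.06 ± 0.03, all with at least 597 input reads. ZC3H13 differed little between stages, while METTL14 and WTAP had their lowest value in PP. The last exon of YTHDF1, a cytoplasmic reader, held 24 coding nt, and its peak had its midpoint in the exon before, with 1.86 ± 0.06 in hPSC, 1.58 ± 0.05 in DE and 0.75 ± 0.08 in hILO.

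Genes of 3 signalling pathways are counted here beside the 45.5% (PP) to 49.8% (DE) of all genes with a placed peak that had such a peak. Of Wnt genes with a placed peak, 20 of 24 had one at the stop codon in hPSC, 18 of 26 in DE, 14 of 23 in PP and 13 of 22 in hILO, and 17 of 25 and 17 of 28 in WT PP and A5-KO PP. The coreceptors LRP5 and LRP6 had one in all 6 lists, with 1.66 ± 0.12, 1.84 ± 0.10, 1.78 ± 0.17 and 1.75 ± 0.12 for LRP5 in hPSC, DE, PP and hILO. LRP5 was level within its error over the 4 stages. Of Notch genes 11 of 18, 9 of 15, 11 of 19 and 10 of 17 had one in the 4 stages, and 15 of 21 and 7 of 19 in WT PP and A5-KO PP. Their intervals, 50.0% to 86.2% and 19.2% to 59.0%, overlapped. MAML1, a coactivator of Notch targets, had 2.07 ± 0.10, 1.84 ± 0.14, 1.53 ± 0.10 and 1.42 ± 0.10 in the 4 stages, and WT PP and A5-KO PP had 3.52 ± 0.14 and 1.80 ± 0.15, from peaks of 750 and 250 nt that do not cover the same bases. Of TGF-beta genes 12 of 26, 13 of 26, 12 of 20 and 13 of 24 had one in the 4 stages, and 12 of 24 and 14 of 24 in the second batch, and the interval included the share of all genes in each list. LEFTY1, a Nodal antagonist, had 2.30 ± 0.05 in hPSC, 2.21 ± 0.01 in DE with 45515 input reads, 0.93 ± 0.06 in PP and 1.38 ± 0.10 in hILO. LEFTY1 was thus lower after the endoderm stage. Its input was 750 reads in hPSC and 815 in PP, so these values differ at similar input.

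Stage markers carried peaks at the stop codon in several stages, and the counts below stand beside 49.6%, 49.8%, 45.5% and 48.6% of all genes with a placed peak in the 4 stages and 49.6% and 46.9% in the second batch. Of 12 pluripotency genes, 6 had one in hPSC (10 with a placed peak), 6 of 9 in DE, 4 of 6 in PP, 3 of 4 in hILO and 2 of 5 in each list of the second batch. SALL4, a transcription factor of stem cells, had 1.94 ± 0.09, 1.26 ± 0.16, 2.39 ± 0.04 and 1.54 ± 0.04 over the 4 stages, and LIN28B, which blocks let-7 maturation, had 1.76 ± 0.20, 2.04 ± 0.07, 1.07 ± 0.41 and 1.61 ± 0.11, with 16 input reads in PP. Of 12 endoderm genes, 8 had one in DE, where all 12 had a placed peak, and 2 of 4, 3 of 6 and 2 of 6 in hPSC, PP and hILO. It was 7 of 10 in WT PP and 6 of 10 in A5-KO PP. CER1, a secreted antagonist of Nodal and BMP, had 2.08 ± 0.01 in DE with 86311 input reads, against 70 input reads in hPSC. GSC, a homeobox gene of the organizer, had 2.28 ± 0.02 and EOMES, a T-box factor of endoderm, 1.81 ± 0.03 in DE. Both were listed in DE only. FOXA2, a forkhead factor of endoderm, had 2.21 ± 0.03 in DE, 1.93 ± 0.03 in PP and 2.17 ± 0.02 in hILO.

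Progenitor and endocrine genes stand beside the same shares of all genes, among them 45.5% for PP, 48.6% for hILO, and 49.6% and 46.9% for the second batch. Of 12 progenitor genes, 6 of 10 with a placed peak had one at the stop codon in PP, 6 of 9 in hILO, 4 of 5 in hPSC and 3 of 5 in DE, and 6 of 12 and 7 of 12 in WT PP and A5-KO PP. SOX9, which maintains progenitors, had 2.42 ± 0.03 in PP and 2.40 ± 0.02 in hILO, equal within the counting error. NKX6-1, a factor of progenitors and beta cells, had 3.34 ± 0.06 in PP and 1.75 ± 0.05 in hILO, but its PP peak was 50 nt long and its hILO peak 225 nt. HES1, a Notch target, had 5.00 ± 0.04 and 5.05 ± 0.05 in WT and A5-KO progenitors. PDX1, the main pancreatic factor, had 3.16 ± 0.07 and 2.12 ± 0.07 there, from peaks of 1825 and 950 nt. Of 14 endocrine genes, 8 of 13 had one in hILO and 4 of 4, 1 of 2 and 1 of 4 in hPSC, DE and PP, and 2 of 3 in each list of the second batch. INS, which encodes insulin, had 0.83 ± 0.01 in hILO with 25170 input reads. SST, which encodes somatostatin, had 1.81 ± 0.07 and NKX2-2, a factor of endocrine cells, 1.51 ± 0.04. INS was below the lower quartile of the hILO peaks around the stop codon, 1.14.

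The other cell types seen in the input had such peaks too. Of hepatocyte genes with a placed peak, 4 of 9 had one at the stop codon in hILO, 3 of 8 in WT PP, 2 of 7 in A5-KO PP, 0 of 2 in DE and 0 of 1 in PP. The intervals of the first 3 lists, 18.9% to 73.3%, 13.7% to 69.4% and 8.22% to 64.1%, included the 48.6%, 49.6% and 46.9% of all genes. SERPINA1, a plasma protease inhibitor, had 1.19 ± 0.05 in hILO and ALB, which encodes albumin, 1.09 ± 0.08, with the ALB stop codon before the last exon. Of mesenchyme genes 3 of 5, 4 of 6, 2 of 6, 2 of 5, 2 of 6 and 3 of 8 had one in hPSC, DE, PP, hILO, WT PP and A5-KO PP. All genes with a placed peak had one in 45.5% (PP) to 49.8% (DE). COL1A1, a collagen chain, had one in all 6 lists.

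Gene families with unlike last exons are described next. Zinc finger genes named ZNF end in a long last exon, and those with a peak at the stop codon in hPSC had a median of 1318 coding nt in it. In hPSC 217 of 397 had one, 209 of 394 in DE, 206 of 374 in PP, 186 of 365 in hILO, 176 of 411 in WT PP and 195 of 434 in A5-KO PP, against 49.6% of all genes with a placed peak in hPSC and 49.6% in WT PP. The median midpoint was at -16.5 nt in hPSC, before the stop codon, and 97.01% lay in the last exon. ZNF genes share repeated sequence, and how reads were split between them is not known. Ribosomal protein genes have short last exons, with a median of 87 coding nt for those with a peak in hPSC. In hPSC 18 of 35 had one, 15 of 32 in DE, 8 of 19 in PP, 29 of 44 in hILO (65.9%, 95% interval 51.1% to 78.1%), 13 of 24 in WT PP and 13 of 22 in A5-KO PP. The share of all genes was 49.6%, 49.8%, 45.5%, 48.6%, 49.6% and 46.9% in this order, above the ribosomal share in DE and PP and below the interval in hILO. A GGAC site was present in 11.8% of the ribosomal peaks in DE, 20.0% in hPSC and 25% in hILO, and in 35.7%, 46.2% and 50% in WT PP, A5-KO PP and PP, where 14, 13 and 8 such peaks were found. The median length was 93.5 nt in hPSC and 124 nt in hILO. In hPSC the median midpoint of the 20 ribosomal peaks was at 17.5 nt, and its spread was not computed. RPL22, of the large subunit, had 2.46 ± 0.02 in hILO with 4383 input reads, and RPL5, also of the large subunit, had 1.79 ± 0.02 in hPSC with 4445. Reads of these genes may also come from their many processed pseudogenes.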

How the data were processed

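m6A-seq was analysed for 6 populations with 2 IP and 2 input libraries each. Reads were trimmed (fastp), mapped to GRCh38 (HISAT2) and passed to exomePeak2 by the authors, who called 1 peak list per population. The deposited values of a peak are its read counts in the pooled IP and the pooled input libraries, a log2 enrichment of IP over input that includes the caller's own scaling, and a p-value and adjusted p-value. It is not stated if pooling means adding or averaging. The lists held log2 values from 0.585 and adjusted p up to 0.04999. HOMER is named in the submitters' notes, and its output was not used here.

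Each peak was clipped to the exons of the longest protein-coding isoform of its gene in GENCODE 44 (19702 genes, 19563 with an annotated stop codon) and kept where its exonic midpoint lay within 200 nt of the last CDS base. A peak was shared where over 50% of its exonic length was covered by peaks of the other list on the same isoform, and its log2 enrichment was set against that of the peak with the longest overlap. The counting error is that of the IP and input counts with 0.5 added to each, taken as sums. Density is midpoints per kb of isoform in bins of 50 nt, for bins with at least 5 kb. Shares have Wilson 95% intervals. No test was made, since no value per library was analysed.

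Named genes followed 5 rules. They were genes of the lists with a peak, up to 4 examples a list, beside ALKBH5 as the targeted gene; the 6 highest medians over the 4 stages; the 3 largest differences each way per comparison; the 3 highest peaks found alone in each stage; and the 3 highest with the stop codon before the last exon. All but the first rule required 50 input reads. Lists covered markers of pluripotency, endoderm, progenitors, endocrine cells, hepatocytes and mesenchyme, m6A machinery, Wnt, Notch and TGF-beta pathways, ribosomal proteins and ZNF genes. The members and lists were chosen with earlier results of these data known.

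Alternatives were another isoform, window, overlap, p threshold, input minimum, log2 scale and motif, and, chosen after seeing the data, peaks that touch 1 exon and, for the ratio of last to earlier exons, an input minimum and matching by distance from the stop codon. Python 3.11.15, numpy 2.4.6, pandas 2.3.3, SciPy 1.17.1 and matplotlib 3.10.9 were used, and the scripts were tested on simulated data.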

Additional observations from a re-analysis of the deposited data

How the results depend on the processing

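Of 160 alternative values, 79 stayed within the counting error or within 1.5 times the reported count and 81 moved. No paired analysis was possible because each list pools its libraries, and leaving out a library was not run for the same reason. Where a window, threshold or overlap was changed, the counts moved by construction, since more or fewer peaks qualify. The shares found in another list moved by construction where only the overlap was changed. Elsewhere, as for the share of placed peaks, the cause was not tested.

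The number of peaks around the stop codon depended on the window. In the order hPSC, DE, PP, hILO, WT PP and A5-KO PP, it was 3152, 2933, 2443, 2878, 3188 and 3377 with 100 nt and 9286, 8801, 7421, 8712, 10233 and 11094 with 400 nt. With p below 1e-05 PP had 2944, WT PP 3470 and A5-KO PP 3623. Requiring 50 input reads, hPSC had 3587, WT PP 3795 and A5-KO PP 3311. Peaks that covered the last CDS base numbered 2832 in PP.

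The share of placed peaks was higher on the isoform with the longest CDS, with 21.04%, 22.29%, 20.21%, 22.07%, 19.2% and 18.04% in the order hPSC, DE, PP, hILO, WT PP and A5-KO PP. On the canonical isoform it was 20.82%, 22.13%, 20.14%, 21.86%, 18.98% and 17.9%. With p below 1e-05 it was 21.17% in hPSC, 23.53% in DE and 20.2% in PP, and with at least 50 input reads 20.94% in hPSC, 22.49% in DE and 17.79% in A5-KO PP. The order DE above PP, hILO above PP and WT PP above A5-KO PP stayed under both isoforms. The intervals overlapped for hILO (20.64% to 21.68%) and PP (19.56% to 20.86%) with p below 1e-05, and for WT PP (18.15% to 19.22%) and A5-KO PP (17.24% to 18.34%) with 50 input reads.

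Peaks that touch 1 exon, an alternative added after seeing the data, lay in the last exon in 96.28%, 96.11%, 95.45%, 95.12%, 95.78% and 95.03%, and gave ratios of last to earlier exons of 3.66, 3.138, 2.865, 2.805, 3.058 and 2.776. The higher ratios follow from the filter, which in hPSC left 186 of 370 midpoints in earlier exons and 1541 of 1743 in the last exon. Matched by distance, also added after seeing the data, the ratio was lower in all 6 lists, with 1.892, 1.501, 1.591, 1.273, 1.797 and 1.471. GGAC in place of DRACH was present in 63.53%, 61.3%, 58.63%, 62.61%, 62.12% and 60.33%.

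The share found in the list before, for DE, PP, hILO and A5-KO PP, was 81.11%, 80.31%, 65.24% and 73.22% with any overlap, 61.11%, 57.32%, 46.91% and 48.58% with over 50% of both peaks, and 62.86%, 63.49%, 37.25% and 45.63% with p below 1e-05 in both lists. With at least 50 input reads it was 77.42% in DE and 72.21% in A5-KO PP. Among the stages hILO had the lowest share under each of these.

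Differences of at least 1 with 50 input reads in both lists numbered 41 higher and 85 lower from hPSC to DE, 86 and 148 from DE to PP, 54 and 173 from PP to hILO, and 386 and 358 from WT PP to A5-KO PP. On the scale of centred count ratios the direction of the split turned in 2 comparisons, with 254 higher and 242 lower from DE to PP (256 and 297 as reported) and 1320 and 1378 from WT PP to A5-KO PP (1638 and 1228 as reported). PP to hILO gave 201 and 234.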
